A study of Danio rerio with 28 samples.

Results

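The 9 genes krt4, krt5, krt8, krt18a.1, grhl1, grhl3, cldne, epcam and ppl were taken by their symbols from a table of 32520 zebrafish genes, as genes of the outer epithelium of the early embryo. They were chosen with earlier results of these data known, so their counts beside the shares of all genes are a description and no test of the set. All 9 symbols were found, and all 9 genes passed a filter on low counts that kept 14732 genes. The libraries were enriched for newly made RNA from whole embryos over genome activation. Embryos had been injected with s4UTP, a uridine nucleotide carrying sulfur, and RNA that had taken it up was biotinylated, enriched on beads and treated with iodoacetamide (IAA), which marks the sulfur-bearing bases. The mutant embryos were mir430-/- and also received miR430 by injection, and the controls were wild type embryos injected with s4UTP without miR430. Each genotype had 3 libraries at each of the 4 stages 256c, 1024c, Oblong and Sphere, which makes 8 groups and 24 libraries. Wild type embryos also gave 4 libraries prepared without IAA, 1 at each stage. Since miR430 was injected only into mir430-/- embryos, the effects of deletion, injection and line cannot be told apart in any comparison of the genotypes.

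The enveloping layer is the single-cell-thick epithelium that covers the zebrafish blastula and seals it against the outside. Keratins form its intermediate filaments, in which a type II keratin pairs with a type I keratin. Grainyhead-like proteins are transcription factors known across animals for their role in surface epithelia and their junctions. The labelled tissue was whole embryo, so fewer cells of a type and less RNA per cell cannot be told apart in any value below.

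The members lie on 6 chromosomes in the GRCz11 annotation of the deposited table. The type II keratin genes krt5 (chr23:10173196-10177458, minus strand) and krt8 (chr23:10249626-10254288, minus strand) and the type I keratin gene krt18a.1 (chr23:10347851-10351754, plus strand) share a stretch of chromosome 23, with gaps of 72167 bases between krt5 and krt8 and 93562 bases between krt8 and krt18a.1. A paralog, krt18a.2, begins 1166 bases beyond krt18a.1, and the sources used here do not say how reads common to such copies were split, so counts of both are uncertain to that extent. The type II keratin gene krt4 lies at chr6:39308498-39313027 (minus strand). The grainyhead genes lie on chromosome 17, grhl1 at chr17:32391056-32426413 (minus strand) and grhl3 at chr17:26965351-26977183 (plus strand). The claudin gene cldne is at chr15:2638884-2640966 (minus strand), the cell adhesion gene epcam at chr13:8840772-8843363 (plus strand) and the periplakin gene ppl at chr3:36459790-36481986 (minus strand). These spans are whole genes, from first to last base of the annotation.

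The 24 libraries held between 4960211 and 13803137 counts, most of them mitochondrial in all but 2 Sphere libraries. Nuclear genes held between 258302 and 634140 counts per mutant library at 256c, against between 160889 and 204534 per wild type library, and up to 4118874 at Sphere. The 54 mir430 genes of chromosome 4 served as a check of the genotype: they took at most 0.0228% of nuclear counts in any mutant library, against between 2.22% and 28.0% in the wild type libraries. Levels are given as CPM scaled by TMM (the trimmed mean of M values), over library sizes that include mitochondrial counts. In 4 libraries the summed level of the members stood well below that of the other libraries of the group. Mutant 256c replicate 1 had 38.1 CPM, against 324 and 554 CPM in the other libraries of its group. Mutant 1024c replicate 1 had 90.2 CPM, against 717 and 1082 CPM. Wild type Oblong replicate 1 had 162 CPM, against 647 and 699 CPM, and wild type Sphere replicate 1 had 382 CPM, against 1036 and 1042 CPM. Wild type 1024c replicate 3 stood above its group, with 920.3 CPM against 174 and 298 CPM.

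The question put to the 4 genotype comparisons was how the loss of major transcription bodies bears on genome activation, per the design text. At 256c, 6 of the 9 members were higher in the mutant and none lower: the keratin genes krt5, krt8 and krt18a.1, both grainyhead genes and cldne. Over all tested genes, 6.6% were called higher and 2.87% lower in that comparison (edgeR quasi-likelihood test, Benjamini-Hochberg adjusted p under 0.05). At 1024c only krt8 was higher among the 9 members, against 1.83% of all genes called higher and 1.56% called lower. At Oblong and at Sphere 0 of the 9 members passed the same edgeR test, where 0.774% and 0.394% of all genes were called higher and 0.923% and 0.706% lower. At an unadjusted p under 0.05, 2 members were higher at Oblong (7.85% of all genes) and 2 at Sphere (3.77% of all genes). With DESeq2 epcam was called at Oblong and 0 members at Sphere, where 1.91% and 0.781% of the genes with a DESeq2 adjusted p were higher. In the authors' deposited table, 6 members were higher with an adjusted p under 0.05 at 256c, 1 at 1024c, 1 at Oblong (epcam, adjusted p = 0.00912) and 0 at Sphere. Of all genes with an adjusted p in the authors' deposited table, 9.21% were higher and 3.99% lower at 256c, 3.15% and 2.57% at 1024c, 1.93% and 1.58% at Oblong, and 0.747% and 0.969% at Sphere.

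The fitted log2 fold changes of the 9 members at 256c had a median of 6.13, against 0.24 over all tested genes. With the 4 members that had 0 wild type counts set at their lower bounds, the median was 2.87. The all-gene medians given here are of fitted values, without such bounds. The median was 1.38 at 1024c (0.16 over all genes), 1.02 at Oblong (0.24 over all genes) and 0.79 at Sphere (-0.01 over all genes). At 256c the mutant and wild type libraries did not overlap for krt5, krt8, krt18a.1 and grhl1, a pattern that 13.8% of all tested genes showed in that direction. The corresponding members were krt5, krt8 and epcam at 1024c (9.08% of all genes), krt18a.1, grhl1, epcam and ppl at Oblong (13.9%), and krt5 and epcam at Sphere (7.71%).

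The count at 256c rested in part on single libraries. Without wild type replicate 1 or 2, 2 members remained called (krt8 and grhl1), without wild type replicate 3, 3 did (krt8, grhl1 and grhl3), and without mutant replicate 3, 3 did (krt5, krt8 and grhl1). Over all genes, leaving out a library gave between 1.95% and 7.33% called higher. With only the 256c libraries fitted, krt8 and grhl3 were called, and 8.54% of the genes tested there were called higher. In that fit krt5, krt18a.1, grhl1 and cldne did not pass the low-count filter and gave no value. krt8 was called under each of the 13 alternatives tried at this stage. Without mutant replicate 1, the library with the low summed level, the same 6 members were called. The wild type libraries at this stage had fewer nuclear counts than the mutant ones, and the part of this depth in the result was not tested. With library sizes taken from nuclear genes alone, with TMM or, in a setting chosen after seeing the data, without it, the same 6 members were called. Of the genes tested in these fits, 9.39% were called higher with TMM and 5.48% without it.

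**Figure D1:**
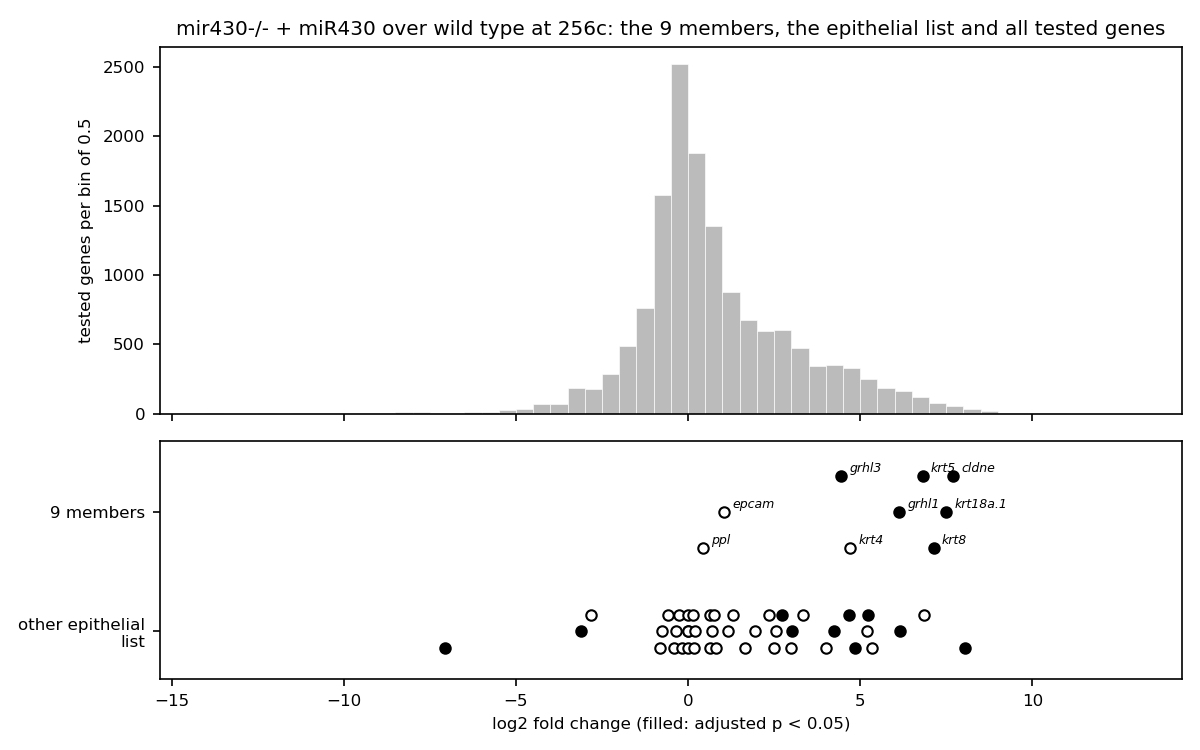
The upper panel plots the number of tested genes per 0.5 of fitted log2 fold change, mutant over wild type at 256c. The lower panel places the 9 members and the 43 tested genes of a wider epithelial list on the same axis, filled where the adjusted p is under 0.05. The 6 filled members lie between 4.46 and 7.69, and ppl, epcam and krt4 are open. Fitted values of genes with 0 counts in a group depend on the prior count.

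By group mean, krt8 had the highest level per kilobase of exon among the 4 keratin genes in all 8 groups. In wild type at 256c this rested on 1 count, with the other keratin genes at 0. krt18a.1 was above krt8 in mutant Oblong replicate 2, mutant Sphere replicates 1 and 2, wild type 1024c replicate 3 and wild type Sphere replicate 2. In mammals keratin 8 is the type II partner of keratin 18 in simple epithelia. At 256c krt8 had 7.17, 16.2 and 23.3 CPM in the 3 mutant libraries, and 0.245, 0 and 0 CPM in the 3 wild type libraries. The single wild type count set against 288 mutant counts gave a ratio of 158 (95% binomial interval 28.1 to 6259, counting error only). The fitted log2 fold change was 7.13 (SE 1.43, adjusted p = 0.00287, edgeR), and every mutant library exceeded every wild type library.

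At 1024c krt8 had 26.6, 514 and 22.7 CPM in the mutant, against 4.67, 8.70 and 6.34 CPM in wild type. Mutant replicate 2 stood far above the others, and the groups did not overlap. The log2 fold change was 4.83 (SE 1.06, adjusted p = 0.00862, edgeR). Without mutant replicate 2 it was 1.91 (adjusted p = 0.257), and the call was also lost without wild type replicate 1 (adjusted p = 0.0654) and with only the 1024c libraries fitted (adjusted p = 0.0828).

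At Oblong krt8 had 93.1, 40.2 and 322 CPM in the mutant, against 63.0, 42.0 and 54.4 CPM in wild type. Its Sphere libraries had 193, 139 and 399.6 CPM in the mutant, against 184, 107 and 134 CPM in wild type. The groups overlapped at both stages, with replicate 3 highest among the mutant libraries, and the adjusted p-values were 0.491 and 0.916 (edgeR).

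The type I keratin gene krt18a.1 had 0.693, 2.66 and 2.90 CPM in the mutant at 256c, against 0 counts in all 3 wild type libraries. The 40 mutant counts made it at least 7.31-fold higher, computed against 3 counts over the wild type group, which corresponds to 0.308 CPM (adjusted p = 0.0221, edgeR). At 1024c it had 0.598, 22.7 and 5.29 CPM in the mutant, against 1.37, 0.982 and 5.03 CPM in wild type, and the groups overlapped. The call at 256c was lost without any 1 of the 3 wild type libraries or mutant replicate 3.

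At Oblong krt18a.1 had 23.6, 40.8 and 28.1 CPM in the mutant and 8.21, 20.1 and 17.4 CPM in wild type, with no overlap and an adjusted p of 0.640 (edgeR). At Sphere it had 136, 149 and 74.2 CPM in the mutant and 32.1, 102 and 58.8 CPM in wild type (adjusted p = 0.859). Its difference at these stages was smaller than the fit could separate from the spread. The neighbouring krt18a.2 had 9 counts over the mutant 256c libraries and 0 over the wild type ones, and averaged 2.496 ± 0.999 CPM in mutant and 0.894 ± 0.226 CPM in wild type at Sphere (SD, n = 3 each).

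The type II keratin gene krt5 stayed low throughout. At 256c it had 0.925, 2.15 and 0.724 CPM in the mutant and 0 counts in all 3 wild type libraries, so that its 25 mutant counts made it at least 4.57-fold higher (adjusted p = 0.0177, edgeR). The call was lost without any 1 wild type library or mutant replicate 2. At 1024c it had 0.449, 1.18 and 0.974 CPM in the mutant against 0.137, 0.1403 and 0 CPM in wild type. The ratio over 2 wild type counts was 8.02 (95% binomial interval 1.88 to 71.9), and the adjusted p was 0.126 (edgeR). The libraries of the 2 genotypes were apart at both stages, on few counts.

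At Oblong krt5 had 1.03, 0.514 and 3.70 CPM in the mutant, against 0.121, 0.819 and 0.700 CPM in wild type. At Sphere it had 2.75, 3.18 and 3.005 CPM in the mutant, against 1.35, 1.05 and 0.678 CPM in wild type. The Sphere groups did not overlap and the mutant libraries lay close together, while the log2 fold change of 1.54 (SE 0.69) had an adjusted p of 0.423 (edgeR).

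The type II keratin gene krt4 had few counts before Oblong. In the mutant at 256c it had 0, 0 and 0.905 CPM, from 5 counts in all, and in wild type 0 counts. Against 3 counts over the wild type group no fold could be given, and it was not called (adjusted p = 0.388, edgeR). At 1024c it had 0.299, 4.53 and 0.418 CPM in the mutant, against 0.137, 0.421 and 1.97 CPM in wild type, and at Oblong 9.16, 6.51 and 4.59 CPM in the mutant, against 3.02, 7.20 and 2.62 CPM in wild type. The groups overlapped at both stages. It ranged from 14.9 to 64.4 CPM in the mutant and from 10.6 to 34.9 CPM in wild type at Sphere, which overlapped (adjusted p = 0.801).

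**Figure D2:**
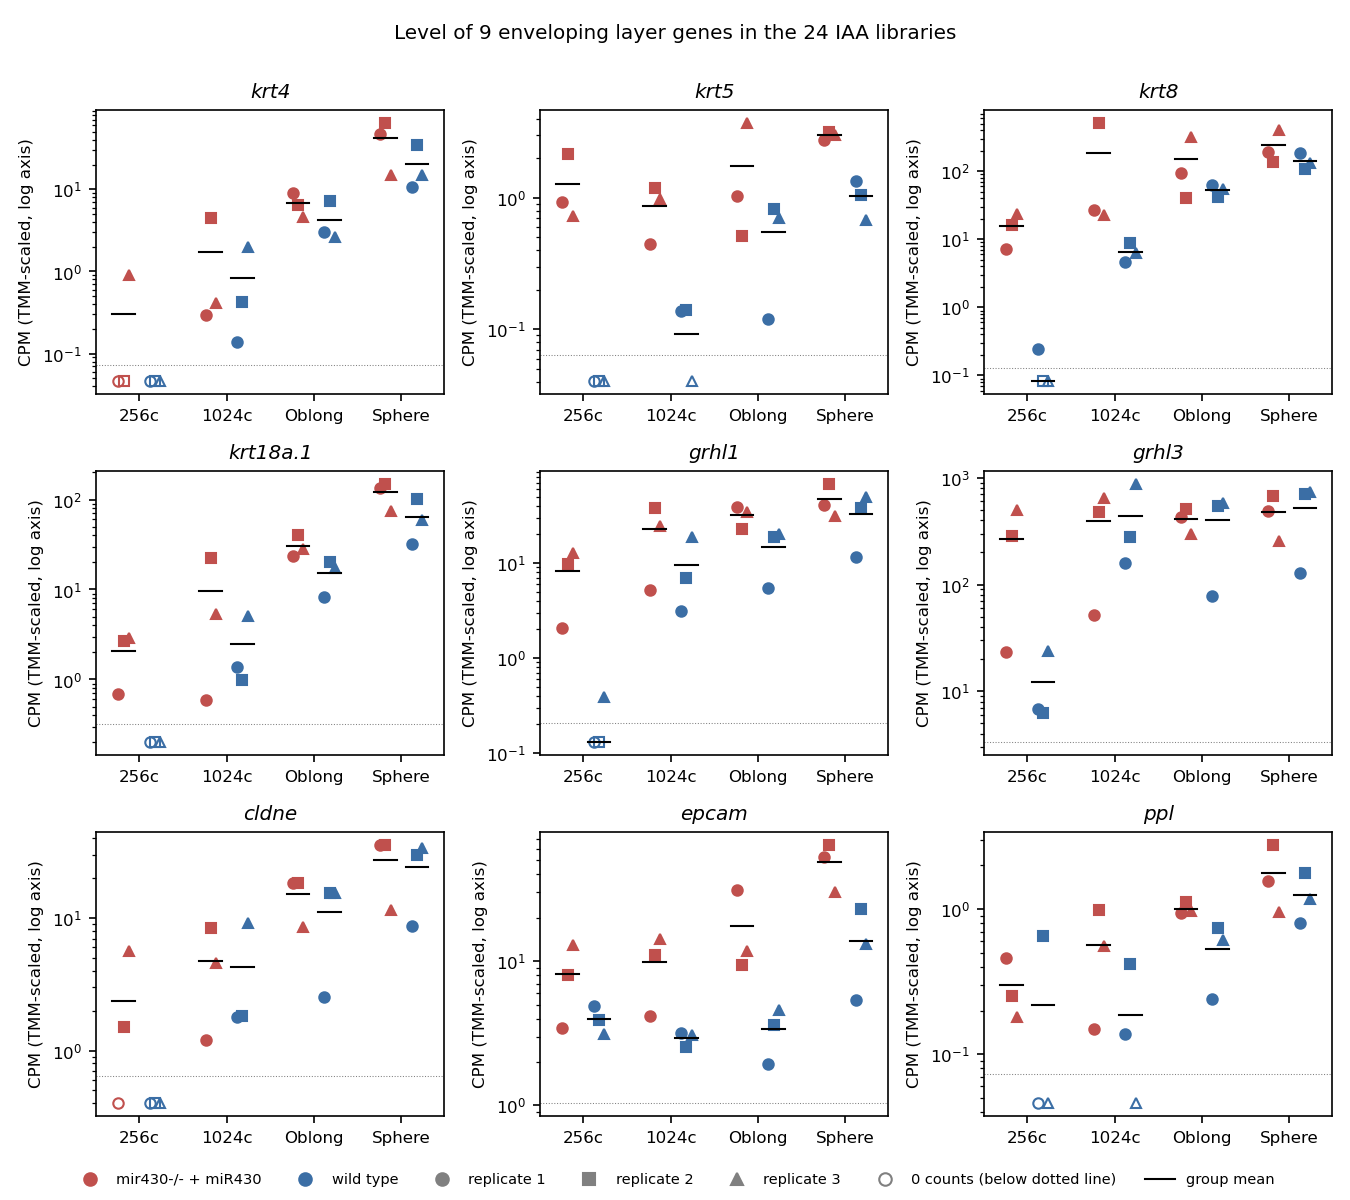
TMM-scaled CPM on a log axis for each of the 9 genes in each of the 24 IAA libraries, by stage, with mutant left of wild type, the marker shape giving the replicate number and the bar the mean of 3 libraries. Open markers below the dotted line are libraries with 0 counts. At 256c the wild type libraries of krt4, krt5, krt18a.1 and cldne all lie below the line.

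The grainyhead genes differed in level but moved together between libraries. By group mean, grhl3 was the member with the highest level per kilobase of exon in all 8 groups. In single libraries, epcam was above it in wild type 256c replicates 1 and 2. krt8 was above it in mutant 1024c replicate 2, mutant Oblong replicate 3, mutant Sphere replicate 3 and wild type Sphere replicate 1. At 256c grhl3 had 23.3, 283 and 495 CPM in the mutant, against 6.85, 6.20 and 23.6 CPM in wild type. Replicate 1 was an order of magnitude below the others in the mutant and overlapped the highest wild type library. The log2 fold change was 4.46 (SE 1.13, adjusted p = 0.0138, edgeR). The call depended on wild type replicates 1 and 2 and mutant replicate 3, and was lost when any of these was left out.

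At 1024c grhl3 had 51.5, 481 and 644 CPM in the mutant, against 160, 276 and 876 CPM in wild type. At Oblong it had 427, 513 and 295 CPM in the mutant, against 77.3, 539 and 583 CPM in wild type. The Sphere libraries had 491, 679 and 254 CPM in the mutant, against 128, 698 and 737 CPM in wild type. The genotypes overlapped at each of these stages, and the adjusted p-values lay between 0.979 and 0.999 (edgeR).

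grhl1 had 2.08, 9.75 and 12.7 CPM in the mutant at 256c, against 0, 0 and 0.388 CPM in wild type. The ratio of 156 mutant counts to 1 wild type count was 85.5 (95% binomial interval 15.1 to 3400), and the log2 fold change was 6.13 (SE 1.27, adjusted p = 0.00357, edgeR). The groups did not overlap, and the call was kept in each alternative that gave a value. At 1024c it had 5.24, 38.0 and 24.6 CPM in the mutant against 3.16, 7.02 and 18.6 CPM in wild type, and the groups overlapped (adjusted p = 0.467).

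At Oblong grhl1 had 39.0, 22.8 and 34.3 CPM in the mutant, above the 5.43, 18.9 and 20.4 CPM of wild type in every library, with an adjusted p of 0.579 (edgeR). At Sphere it had 40.8, 68.0 and 31.3 CPM in the mutant and 11.7, 37.9 and 49.6 CPM in wild type (adjusted p = 0.964), and the groups overlapped.

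cldne encodes a claudin, a strand protein of tight junctions. At 256c it had 0, 1.52 and 5.61 CPM in the mutant and 0 counts in all 3 wild type libraries. It was at least 7.86-fold higher over the groups (adjusted p = 0.0353, edgeR), although 1 mutant library also had 0 counts. Its call was lost without any 1 wild type library or mutant replicate 3. At 1024c cldne had 1.197, 8.47 and 4.59 CPM in the mutant, against 1.79, 1.82 and 9.18 CPM in wild type, and at Oblong 18.4, 18.2 and 8.59 CPM in the mutant, against 2.54, 15.5 and 15.4 CPM in wild type. Its groups overlapped at both stages (adjusted p = 0.972 and 0.853) and again at Sphere, from 11.5 to 35.6 CPM in the mutant and from 8.67 to 33.9 CPM in wild type at Sphere (adjusted p = 0.999).

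epcam encodes an epithelial cell adhesion molecule. It had the smallest fitted change of the 9 members from 256c to Sphere in wild type, and it had counts in all 24 libraries. At 256c it had 3.47, 7.97 and 13.03 CPM in the mutant against 4.89, 3.92 and 3.10 CPM in wild type, which overlapped (adjusted p = 0.383, edgeR). At 1024c it had 4.19, 11.04 and 14.3 CPM in the mutant, all above the 3.16, 2.53 and 3.06 CPM of wild type. The log2 fold change was 1.75 (SE 0.67, adjusted p = 0.152).

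At Oblong epcam had 31.2, 9.42 and 11.7 CPM in the mutant, against 1.93, 3.602 and 4.55 CPM in wild type, and the estimate was 2.37 on the log2 scale (SE 0.67, adjusted p = 0.0684, edgeR). Sphere libraries had 52.5, 64.01 and 30.2 CPM in the mutant, against 5.41, 23.2 and 13.2 CPM in wild type, and the estimate was 1.81 on that scale (SE 0.64, adjusted p = 0.231). The mutant libraries lay above the wild type libraries at 1024c, Oblong and Sphere, without a call in the edgeR fit.

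ppl encodes periplakin, a plakin that links keratin filaments to desmosomes and the cell cortex. It had between 0.181 and 0.462 CPM in the mutant and between 0 and 0.653 CPM in wild type at 256c, from 5 and 2 counts. At Oblong ppl had 0.942, 1.11 and 0.963 CPM in the mutant, all above the 0.242, 0.737 and 0.612 CPM of wild type (adjusted p = 0.658). At Sphere it had between 0.960 and 2.76 CPM in the mutant and between 0.795 and 1.77 CPM in wild type. By group mean it was the lowest member per kilobase of exon in all 4 mutant groups and in wild type at 1024c, Oblong and Sphere. It was not called in any of the 4 genotype comparisons.

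**Figure D3:**
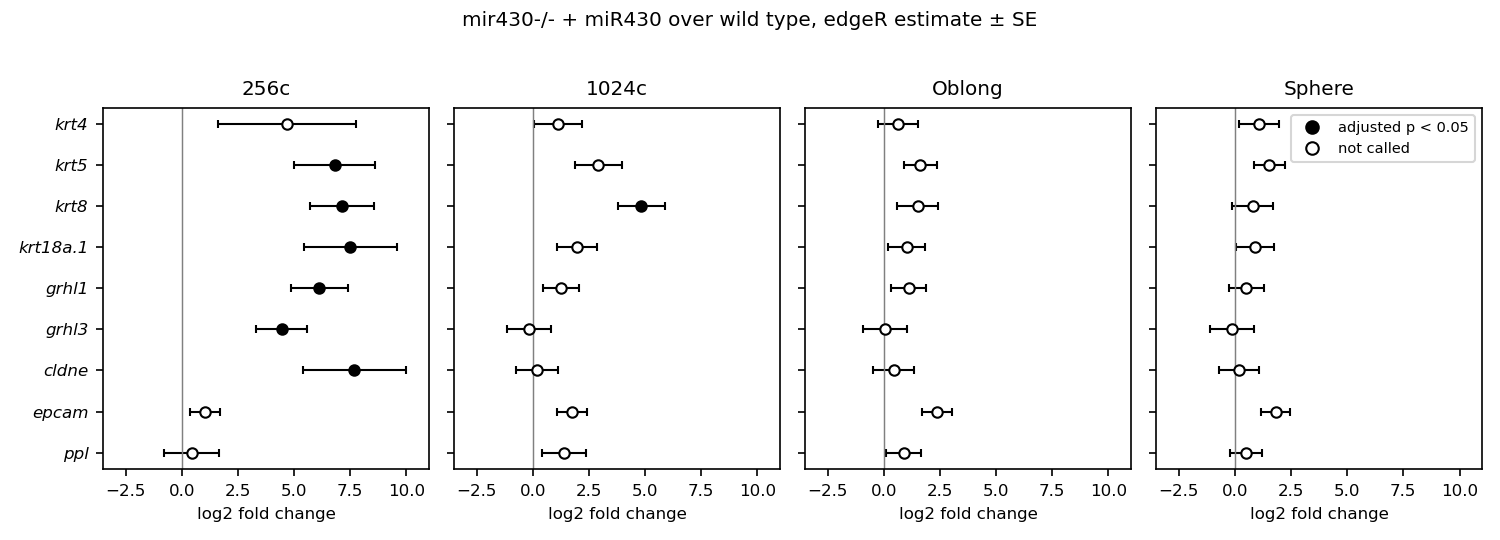
Fitted log2 fold change, mutant over wild type, with its standard error, for the 9 genes at the 4 stages; filled points have an adjusted p under 0.05. The 6 filled points at 256c and krt8 at 1024c stand out, and the remaining points at 1024c, Oblong and Sphere are open. The 256c values of krt4, krt5, krt18a.1 and cldne, with 0 wild type counts, depend on the prior count.

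Within wild type, all 9 members were higher at Sphere than at 256c, where 30.7% of all genes were called higher and 16.2% lower (edgeR). krt4, krt5, krt18a.1 and cldne had 0 counts in wild type at 256c and passed the low-count filter, run over all 24 libraries, through other groups. These genes could therefore not be called lower in any comparison against wild type at 256c. Per gene, krt18a.1 was at least 231-fold higher at Sphere than at 256c, cldne at least 87.4-fold, krt4 at least 72.4-fold and krt5 at least 3.16-fold, all against 3 counts over the 256c group. grhl3 rose by 5.42 on the log2 scale (SE 1.19, adjusted p = 0.00134), epcam by 1.80 (SE 0.67, adjusted p = 0.0319) and ppl by 2.52 (SE 1.03, adjusted p = 0.0465). The epcam call was lost without wild type 256c replicate 1, 2 or 3 or Sphere replicate 2, and the ppl call without 256c replicate 1 or 3 or Sphere replicate 2 or 3. Both were also lost with only the compared groups fitted, epcam with library sizes from nuclear genes and no TMM factors (log2 fold change 0.38, adjusted p = 0.588), and ppl without the low-count filter. krt8 had a ratio of 1297 (95% binomial interval 233 to 51216) and grhl1 of 358 (64.1 to 14128), each over 1 count at 256c. The members' fitted median was 8.14, or 6.18 with the 4 genes at 0 set at their bounds, against a fitted 0.74 over all genes, where no bounds were set.

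Within the mutant, 7 of the 9 members were higher at Sphere than at 256c, where 26.8% of all genes were called higher and 22.4% lower (edgeR). The keratin genes krt4, krt8 and krt18a.1 rose by 7.11 (SE 1.24), 3.97 (SE 1.01) and 5.82 (SE 1.03) on the log2 scale, with adjusted p-values of 0.000588, 0.00362 and 0.000645. grhl1 rose by 2.51 (SE 0.83, adjusted p = 0.0159), cldne by 3.51 (SE 1.01, adjusted p = 0.00757), epcam by 2.58 (SE 0.67, adjusted p = 0.00400) and ppl by 2.57 (SE 0.87, adjusted p = 0.0186). The estimates for grhl3, 0.83 (SE 0.98, adjusted p = 0.486), and for krt5, 1.19 (SE 0.72, adjusted p = 0.165), were not called. With total-count scaling, which moved the median of all genes to 2.85, against 0.57 with TMM, both were called (krt5 3.24, adjusted p = 0.00196, and grhl3 3.02, adjusted p = 0.00369), as 59.3% of all genes were. The grhl1 call was lost without mutant 256c replicate 1 or Sphere replicate 2, and the ppl call without mutant 256c replicate 2 or 3 or Sphere replicate 2.

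The step at which members rose was tested too. In wild type, between 256c and 1024c, 5 of 9 rose (krt8, krt18a.1, grhl1, grhl3 and cldne), against 3.34% of all genes. grhl3 reached 437 ± 384 CPM at 1024c, against 12.2 ± 9.89 CPM at 256c (SD, n = 3 each; log2 fold change 5.17, SE 1.17, adjusted p = 0.0175, edgeR). Without wild type 256c replicate 1 or 2, 0 members were called, and 0% of all genes were called higher in either fit. Without 1024c replicate 3, 0 members were called (0.146% of all genes higher). Without 256c replicate 3, 2 were called (grhl1 and grhl3), where 0.669% of all genes were called higher. In the mutant over the same step edgeR called 0 of the 9 members and 0 of all 14732 genes. At an unadjusted p under 0.05, 3 members were higher (5.16% of all genes). DESeq2 called krt8, with 19 of the 4467 genes that had a DESeq2 adjusted p higher (0.425%). Mutant 1024c replicate 2 had 514 CPM of krt8, against 26.6 and 22.7 CPM in replicates 1 and 3. From 1024c to Oblong and from Oblong to Sphere edgeR called no gene of all 14732 in either genotype, so no single later step could be named in the fit as reported. At an unadjusted p under 0.05, 1 and 3 members were higher over these steps in the mutant (6.96% and 4.53% of all genes), and 4 and 3 in wild type (4.88% and 7.68% of all genes). DESeq2 called epcam from Oblong to Sphere in wild type, where 3.06% of the 9011 genes with a DESeq2 adjusted p were higher. Over that step in wild type, edgeR without Sphere replicate 1 called 3.14% of genes higher and 10.2% lower, with at most 1 member called. With total-count scaling edgeR called 4 members and 14.5% of all genes higher there.

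Each gene reached a different share of its own Sphere mean at the earlier stages. The shares are of TMM-scaled CPM and depend on that scaling. With total-count scaling the grhl3 estimate from 256c to Sphere in the mutant was 3.02 on the log2 scale, against 0.83 with TMM. For grhl3 the share was 56.3% at 256c, 82.6% at 1024c and 86.7% at Oblong in the mutant, against 2.35%, 84.0% and 76.7% in wild type. For krt4 it was 16.02% at Oblong in the mutant, against 21.3% in wild type. krt18a.1 stood at 25.7% at Oblong in the mutant and 23.7% in wild type. Single libraries set some of these shares. The wild type share of grhl3 at 1024c was 41.9% without 1024c replicate 3, and its mutant share at 256c was 32.3% without 256c replicate 3, against 1.25% in wild type without its 256c replicate 3. That of krt4 at Oblong in wild type was 14.03% without Oblong replicate 2 and 33.7% without Sphere replicate 2. For krt8 the share at 1024c was 77.0% in the mutant, and 10.1% without replicate 2, against 4.64% in wild type.

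**Figure D4:**
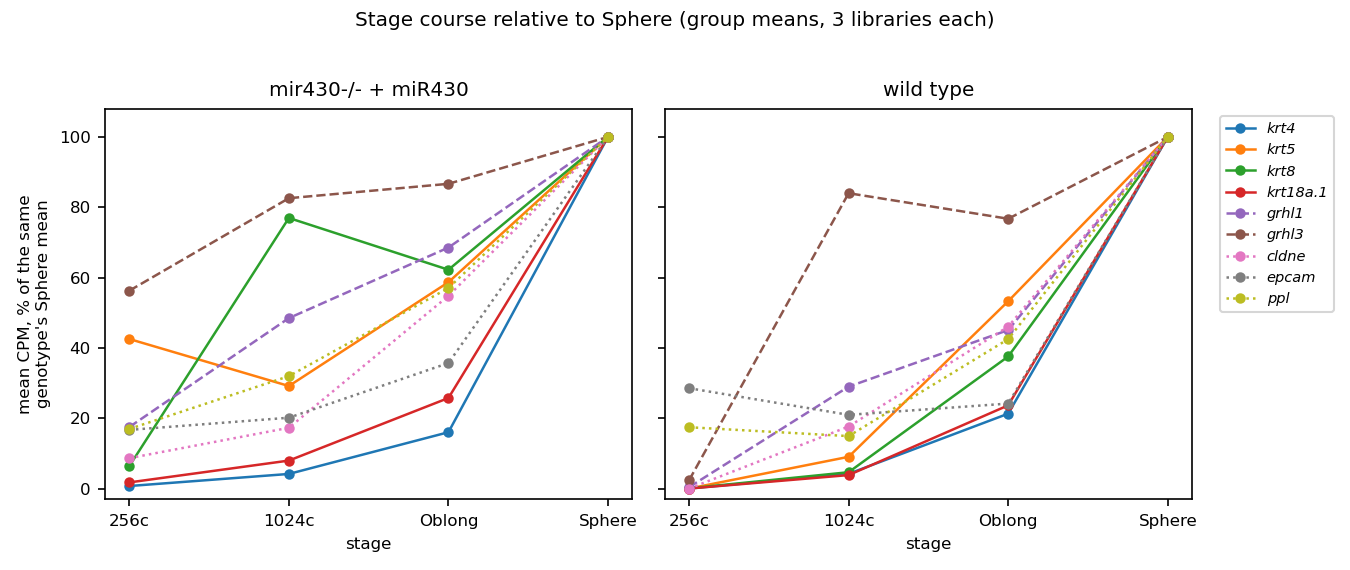
Mean TMM-scaled CPM of each gene at the 4 stages as a percentage of its mean at Sphere in the same genotype, mutant left and wild type right. Each point is a mean of 3 libraries without an error bar, and the percentages depend on the scaling. grhl3 starts at 56.3% in the mutant and 2.35% in wild type, and krt4 stays at 16.02% and 21.3% at Oblong. The krt8 point at 1024c in the mutant, 77.0%, is set by 1 library, and the wild type grhl3 point at 1024c, 84.0%, is 41.9% without replicate 3.

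The difference between the genotypes in the change from 256c to Sphere was tested directly. None of the 9 members passed in edgeR, and 6 were lower at an unadjusted p under 0.05 (10.5% of all genes). Of all genes, 0% were called higher and 0.0136% lower in this contrast. The estimates of krt8 and grhl1 were -6.35 (SE 1.71, adjusted p = 0.0906) and -5.63 (SE 1.53, adjusted p = 0.0931) on the log2 scale, a smaller increase in the mutant. Each of these estimates rested on 1 wild type count at 256c. That of grhl3 was -4.59 (SE 1.46, adjusted p = 0.129), and those of epcam and ppl were 0.78 and 0.04. DESeq2 called krt8, grhl1 and grhl3 lower, as it did 3.22% of the 11283 genes with a DESeq2 adjusted p. Without mutant 256c replicate 1, the library with the low summed level, edgeR called krt8 and grhl1 lower, as it did 1.2% of all genes.

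Ratios within a library do not depend on its scaling. The ratio of krt8 to the type I keratin gene krt18a.1, in counts per kilobase of exon, was 0.908, 0.596 and 3.43 in the mutant at Sphere and 3.65, 0.670 and 1.45 in wild type. It varied as much between replicates as between the genotypes. At 1024c it was 28.4, 14.5 and 2.74 in the mutant and 2.17, 5.65 and 0.804 in wild type, and the libraries overlapped. The ratio of grhl3 to grhl1 was 9.95, 12.8 and 26.5 in the mutant at 1024c, below the 51.2, 39.9 and 47.7 of wild type in every library. At 256c it was 11.4, 29.4 and 39.5 in the mutant, where wild type had too few grhl1 counts for a ratio. At Oblong it was 11.1, 22.8 and 8.70 in the mutant and 14.4, 28.8 and 28.9 in wild type, and at Sphere 12.2, 10.1 and 8.22 in the mutant and 11.1, 18.6 and 15.0 in wild type. At these 2 stages the genotypes overlapped. No test was run on these ratios, and how often ratios of other gene pairs separate the genotypes was not counted.

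**Figure D5:**
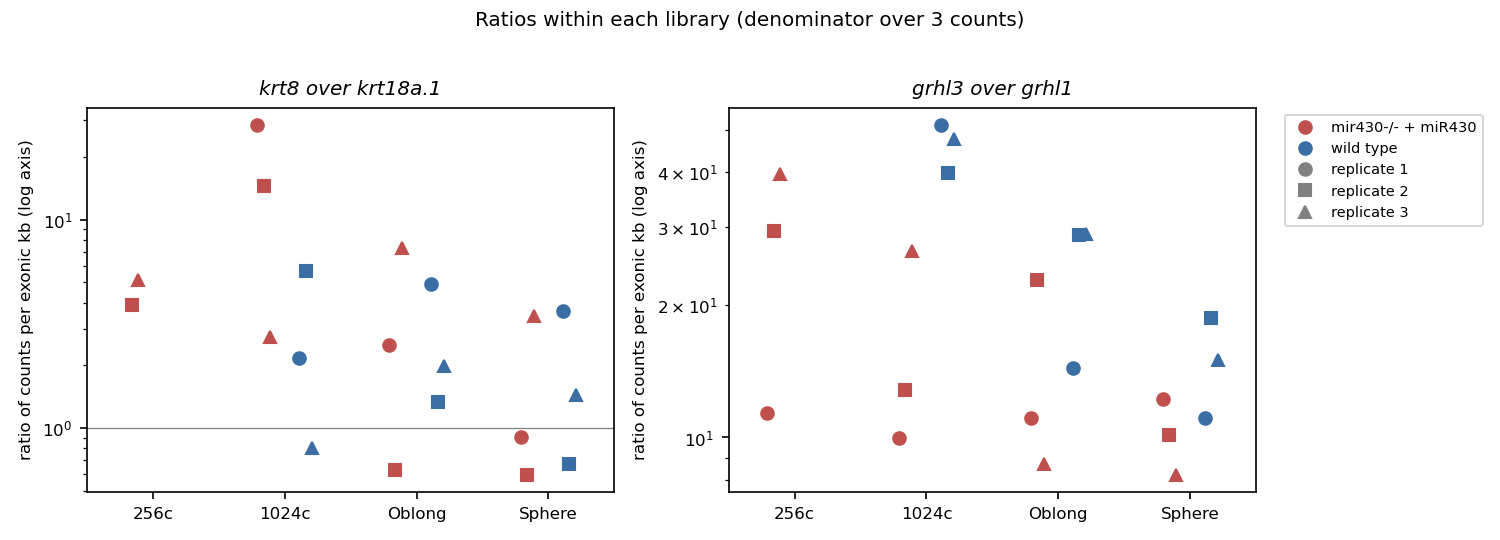
Ratios of counts per kilobase of exon within each library on a log axis, for krt8 over krt18a.1 (left) and grhl3 over grhl1 (right), by stage with mutant left of wild type. Libraries with 3 or fewer counts of the lower gene are left out, which removes all wild type 256c libraries. At 1024c the mutant grhl3 to grhl1 ratios, 9.95 to 26.5, lie below the wild type ones, 39.9 to 51.2.

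The members did not all vary together between libraries of a group. Across the 24 libraries, deviations of log2 CPM from the group mean gave Pearson's r of 0.947 for grhl1 with grhl3, 0.918 for grhl3 with cldne and 0.850 for grhl1 with cldne. krt18a.1 followed them, with 0.788 for grhl1 and 0.792 for cldne. For krt8 with each of the other 8 members, r lay between 0.0222 (ppl) and 0.420 (krt18a.1). These values are descriptions over libraries that share scaling and depth, and krt5 and ppl had few counts.

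The genes whose log2 CPM followed the mean of the 9 standardized members most closely over the 24 libraries were tnfrsf21 (r = 0.978), sdc4 (r = 0.974), zic2b (r = 0.973), aoc2 (r = 0.973) and dusp4 (r = 0.972). Those most like grhl3 alone were acin1b (r = 0.988) and hnrnpa0b (r = 0.985). Those most like krt4 were ywhae2 (r = 0.964) and foxa3 (r = 0.963), and foxa3 (r = 0.983) was also second for krt18a.1, after tbx16 (r = 0.984). The libraries share stage, scaling and depth, so these values describe a shared course and carry no test.

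Ordered by mean level, the highest group was mutant Sphere for 8 of the 9 members and wild type Sphere for grhl3, and the lowest was wild type 256c for 7 members and wild type 1024c for epcam and ppl. Most neighbours in these orders overlapped. Of the 7 neighbouring pairs of groups per gene, 4 overlapped for krt8, 5 for krt18a.1, 6 for krt4 and for grhl1, and all 7 for krt5, grhl3, cldne, epcam and ppl.

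A wider list of 68 enveloping layer and epithelial genes was read from the same fit, of which 67 were in the table and 43 were tested. At 256c, 8 of the 43 were higher in the mutant and 2 lower, against 6.6% and 2.87% of all genes (edgeR). The median estimate was 0.81 on the log2 scale, 0.55 once genes at 0 were set at their bounds. Over all genes the fitted median was 0.24, where no bounds were set. Among the 8 were the transcription factor genes gata2a, with 62.3 ± 58.4 CPM in the mutant and 0.829 ± 0.857 CPM in wild type (SD, n = 3 each; adjusted p = 0.00176), and foxi1, with 25.3 ± 10.6 CPM in the mutant and 0.891 ± 1.22 CPM in wild type (SD, n = 3 each; adjusted p = 0.0112). tfap2a and tfap2c, AP-2 factor genes, were higher with adjusted p-values of 0.00841 and 0.0236, and sult6b1, named for a sulfotransferase, was at least 10.8-fold higher (adjusted p = 0.00890). The 2 lower genes encode desmosome proteins: dspb, a desmoplakin, had 0.937 ± 0.395 CPM in the mutant and 8.42 ± 4.13 CPM in wild type (SD, n = 3 each; adjusted p = 0.0189), and pkp1a, a plakophilin, had 0 counts in the mutant and 15 in wild type (adjusted p = 0.0250).

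In the later genotype comparisons 1 of the 43 listed genes was called at 1024c, 1 at Oblong and 0 at Sphere. Over all genes, 1.83%, 0.774% and 0.394% were called higher and 1.56%, 0.923% and 0.706% lower. At 1024c eppk1, a plakin gene, was higher at 17.9 ± 28.2 CPM in the mutant and 0.187 ± 0.324 CPM in wild type (SD, n = 3 each; adjusted p = 0.0145, edgeR). At Oblong itgb4, a hemidesmosome integrin gene, was higher at 2.63 ± 0.553 CPM in the mutant and 0.310 ± 0.190 CPM in wild type (SD, n = 3 each; adjusted p = 0.0458, edgeR). At Sphere 4 of the 43 were lower and 2 higher at an unadjusted p under 0.05 in edgeR, against 6.71% and 3.77% of all genes. The eppk1 mean in the mutant had an SD above it. From 256c to Sphere 19 listed genes rose and 5 fell in the mutant, and 23 rose and 3 fell in wild type, beside the shares of all genes given above for these contrasts.

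Markers of other cell types moved at 256c as well. Of 8 tested yolk syncytial layer genes 3 were higher in the mutant, and of 16 tested germ layer genes of the deep cells 6 were higher, against 6.6% of all genes. The germ layer list had a median estimate of 4.35 on the log2 scale, 3.12 once genes at 0 were set at their bounds. Over all genes the fitted median was 0.24, where no bounds were set. The summed level of the germ layer list ranged from 126 to 2262 CPM in the mutant libraries and from 75.3 to 378 CPM in the wild type libraries, and that of the yolk syncytial list ranged from 122 to 810.3 CPM in the mutant libraries and from 23.5 to 84.5 CPM in the wild type libraries. In wild type at 256c, 10 of the 13 yolk syncytial genes in the table had 0 counts. All 14 genes of the oocyte list had counts at 256c in both genotypes, so the libraries also held maternal RNA. Of the germ plasm and oocyte lists, 0 of 5 and 0 of 9 tested genes were called by edgeR, with 0 and 1 at an unadjusted p under 0.05. The part of these changes in the members' result was not tested.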

How the data were processed

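The members and gene lists were chosen with earlier results of these data known. The deposited table held raw counts per gene, a gene length (other) and annotation columns, described as filtered per the file headers, without saying what was filtered. Trimmomatic, HISAT, SAMtools, Picard, featureCounts and DESeq2 and the build GRCz11 were named per the submitters' processing notes, with versions not given in the sources used here. The authors' deposited comparison tables gave log2 fold changes, p-values and a mean signal per gene, which was not used. All 9 members are named whatever their values, and of the wider list those called with the largest changes and a level of at least 1 CPM in the higher group.

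The 24 IAA libraries were fitted together as 8 group means with edgeR 4.0.16 (limma 3.58.1, R 4.3.3) by the quasi-likelihood test, with 16 residual degrees of freedom, TMM scaling and filterByExpr, and p-values were adjusted by Benjamini-Hochberg over 14732 genes. Correlations used log2 CPM with a prior count of 2. Alternatives were total-count scaling, library sizes from nuclear genes, no filter, a replicate block, only the groups compared, DESeq2 1.42.0 and leaving out each library. Replicates are biological per the labels, which name no clutches, and the p-values cover only how far these libraries differ among themselves. Intervals and the floor of 3 counts cover counting error only.

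Deviations of same-numbered libraries from their group means correlated at over 0.1 in all 3 pairs between the genotypes at Oblong (0.112 to 0.198), between 256c and 1024c in wild type (0.173 to 0.278) and between Oblong and Sphere in the mutant (0.511 to 0.670) and wild type (0.469 to 0.780), where the numbers were taken to pair the libraries. The fit as reported had no replicate block, so its p-values leave this pairing out. With the block, 5.45% of genes were called higher between 256c and 1024c in wild type, against 3.34% without it. At Oblong 0.984% were called higher in the mutant with the block, against 0.774% without it. Between Oblong and Sphere 0 genes were called in either genotype with the block. In simulated 256c data over 14732 genes, 6 of 67 genes changed 4-fold, 50 of 67 changed 16-fold and 64 of 66 changed 64-fold were recovered. There were 7 false calls among 14028 unchanged genes. Changes were planted only as increases in the mutant, in genes above a minimum mean fitted count over the 256c libraries. The recovery rates therefore do not cover genes with fewer counts.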

Additional observations from a re-analysis of the deposited data

Results flagged for a closer look

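The members had counts in the wild type libraries prepared without IAA, which entered no comparison. The summed counts of the 9 members were 10 at 1024c, 143 at Oblong and 2488 at Sphere, each above the limit of 3 counts that a count of 0 allows. At 256c the sum was 3, all from epcam, and at 1024c all 10 counts were from epcam, so the other members had 0 counts at both stages. The libraries had unequal depth, with 104079, 146980, 131331 and 637576 nuclear counts at 256c, 1024c, Oblong and Sphere. At Sphere grhl3 had 1431 counts, krt8 506, krt18a.1 162, grhl1 142, cldne 110, krt4 85, epcam 42, krt5 7 and ppl 3. Each stage had 1 such library, so these values have no replicate check. At 1024c epcam was higher per nuclear count without IAA than in each wild type IAA library, which had 23, 18 and 14 counts. Those libraries held 456426, 511518 and 760011 nuclear counts. At 256c it was lower without IAA than in each wild type IAA library, which had 20, 12 and 8 counts over 204534, 160889 and 164092.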

How the results depend on the processing

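Shares in brackets are of the genes tested in each fit, called higher unless stated otherwise. Members called at 256c numbered 6 (6.6%), with 2 to 6 when a library was left out (1.95% to 7.33%) and 2 with only the groups compared (8.54%). The replicate block left 5 (6.14%), since cldne then had an adjusted p of 0.0510, and it moved no count of members called by over 1.5 times. Of all genes, 803 were called higher with the block between 256c and 1024c in wild type, against 492 without it. At 1024c the count was 1 (1.83%), with 0 to 1 without a library (0.541% to 1.5%) and 0 with only the groups compared (1.28%). DESeq2, with shares of the genes that had a DESeq2 adjusted p, gave 1 at Oblong (1.91%) and 3 for the difference between genotypes (3.22% lower). For the mutant between 256c and 1024c DESeq2 gave 1 (0.425%), as did the fit without the filter (0.244%). For wild type between Oblong and Sphere DESeq2 gave 1 (3.06%), total-count scaling 4 (14.5%) and leaving out a library 0 to 1 (0% to 3.14%, and at most 10.2% lower). The genotype difference gave 4 with total-count scaling (0.102% higher, 3.01% lower) and 4 without the filter (0.112% higher, 2.19% lower). With nuclear library sizes and no TMM factors (chosen after seeing the data) it gave 1 (0.129% higher, 0.562% lower). Without a library it gave 0 to 2 (at most 0.154% higher and 1.2% lower). Between 256c and Sphere, leaving out a library gave 5 to 7 for the mutant (14.2% to 27.1%) and 7 to 9 for wild type (19.2% to 32.3%). For wild type between 256c and 1024c it gave 0 to 5 (0% to 3.57%). The causes were not tested.

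The sign of uncalled members turned under some settings. At Oblong grhl3 was 0.04 in the fit as reported, -0.012 with nuclear TMM, -0.10 with nuclear sizes and no TMM factors, -0.069 without the filter and -0.050 with only the groups compared. At Sphere it was -0.13, and 0.10 with the replicate block. In wild type between 256c and 1024c epcam was -0.45, and 0.47 with total-count scaling, and ppl was -0.04, and 1.00 with total-count scaling, 0.32 without the filter and 0.17 with DESeq2. The genotype difference of ppl was 0.04, and -0.47 with total-count scaling, -0.27 without the filter, -0.14 with the replicate block and -0.24 with only the groups compared. Without a library the ranges were -0.24 to 4.71 for ppl at 256c, -1.08 to 2.55 for krt4, -0.71 to 0.85 for grhl3 and -0.52 to 1.38 for cldne at 1024c, -0.44 to 0.42 for grhl3 and -0.023 to 0.75 for cldne at Oblong, -0.60 to 0.17 for grhl3 and -0.22 to 0.56 for cldne at Sphere, -1.24 to 4.23 for ppl in wild type between 256c and 1024c, and -4.35 to 1.06 for krt4 and -4.24 to 0.71 for ppl in the genotype difference. Without mutant 256c replicate 3, krt4 had 0 counts at 256c in both genotypes, gave no value in the 256c comparison, and its 1.06 in the genotype difference rests on those 0 counts.

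Summed levels moved with the denominator. With total-count scaling the group means of these sums at Sphere were 3092 CPM in the mutant and 2287 CPM in wild type. They were 819 CPM at Oblong in the mutant and 6.67 CPM at 256c in wild type, which are different stages. With nuclear TMM they were 3294, 7145, 7394.5 and 10660.4 CPM over the 4 stages in the mutant, against 148, 5529, 5637 and 8383 in wild type. With nuclear sizes and no TMM factors they were 3314, 5759, 6127 and 6831 CPM in the mutant, against 290.4, 4158, 5288 and 5783 in wild type. Total-count scaling moved the all-gene median at 256c to 0.96, against 0.24 with TMM. Depth limits the 256c values most, where 0 counts over the wild type group allow up to 0.308 CPM.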
